A study of Danio rerio with 4 samples.

Results

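The 44 genes described here encode the machinery that copies DNA, and their stored and newly made RNA was followed between an embryo that still divides in fast cleavages and one in slower cycles. They were listed by gene name. All 44 were found among the 25769 genes of the deposited table, each listed in all 4 libraries, and all 44 passed the filter on low counts and were among the 16315 genes tested. The bulk libraries came from SLAM-Seq of whole AB/TL zebrafish embryos, injected at the 1-cell stage with 4-thiouridine (4sU). RNA made afterwards carries 4sU, which chemical conversion makes read as C in place of T, and the share of a gene's RNA that is labeled is its new-to-total RNA ratio (NTR). One group was collected at 30% epiboly (4.8 hpf in the study's methods, 6 hpf in the labels) and the other at the 4-cell stage (1 hpf). Both groups were pools of 25 embryos and both were injected with 4sU, given as 50 mM in the methods and as 20 mM in the labels. Embryos without 4sU were not analysed here. Per stage there was 1 polyA+ library, read single-end over 75 nt on a NextSeq, and 1 ribo-depleted library, read paired-end over 100 nt on a NovaSeq instrument. The type of library cannot be told apart from the instrument, and within a type no stage was replicated. The series text calls its replicates technical. With stage and library type fitted, p-values rest on how far the stage effect differed between library types, with variance shared across genes. Spread between embryo pools of the same stage and type is not in them.

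Before a cell copies its DNA, the origin recognition complex (ORC), Cdc6 and Cdt1 load the MCM helicase, built of the subunits MCM2 to MCM7, onto origins, and geminin holds Cdt1 back so that no origin is loaded again in the same cycle. Cdc45 and the GINS complex then join the helicase with the help of TopBP1, treslin (ticrr), Recql4 and Mcm10, and DNA polymerases alpha, delta and epsilon copy the strands with the sliding clamp PCNA, its loader RFC and the single-strand binding protein RPA. In the zebrafish embryo the first cycles run without gap phases on RNA and protein laid down in the egg, and cycles lengthen at the midblastula transition, when the zygotic genome becomes active.

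The libraries held 10212400 (polyA+) and 17814709 (ribo-depleted) reads at 30% epiboly, against 9058807 and 22521675 reads at 4-cell. The 44 replication genes took 0.732% and 0.634% of these reads at 30% epiboly, against 0.806% and 0.828% at 4-cell. The share of covered T bases read as C was 1.496% and 1.32% at 30% epiboly, against 0.177% and 0.232% at 4-cell. Of the markers of stage, the stored RNAs dnd1, nanos3 and wee2 were called lower at 30% epiboly and the zygotic genes tbxta, gsc, sox3, cxcr4a, krt8 and spaca4l higher, while the stored RNA h1m did not pass the test. Levels below are counts scaled to the same TMM-adjusted library total (CPM). Changes are log2 ratios of 30% epiboly over 4-cell, fitted for edgeR's quasi-likelihood test. Their standard error (SE) was back-calculated as the absolute log2 change divided by the square root of the test's F statistic. CPM is a share of the RNA of whole embryos, so fewer cells of a type and less RNA per cell cannot be told apart, and the amount per embryo was not measured.

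The MCM helicase genes mcm3 and mcm6 were present at 30% epiboly and nearly without reads at 4-cell, and 10 genes of helicase activation, DNA synthesis, RPA and ORC were lower at 30% epiboly. The 10 were cdc45, gins2, ticrr, rpa1, pola2, orc1, prim2, pole, mcm10 and recql4, with log2 changes of -3.28 to -1.32. In all, 12 of 44 replication genes were called in total RNA (27.3%), 2 higher and 10 lower, at a Benjamini-Hochberg adjusted p threshold of 0.05. Over all genes tested, 32.6% were called, so the share called with both directions pooled was near that of the genome. By direction, 4.55% of the 44 were higher, beside 18.3% of all genes, and 22.7% were lower, beside 14.4%. Of the 2 called higher, mcm6 passed the filter on low counts only through the 30% epiboly libraries, where it was high. The other 32 replication genes had log2 changes between -1.12 and 1.18. The median over the 44 was -0.32, against 0.10 over all genes tested. All 12 called genes had the same sign in both library types. The test favours genes whose stage effect is alike in both types, so this is no separate check. DESeq2 called 15 of the 44, 5 higher and 10 lower. Most falls lost their call without library type in the fit or without 1 of the 4 libraries. Fits with 1 library left out also held no term for library type. There the effect of the missing library cannot be told apart from that of the missing term. With library type left out 4 genes were called (cdc45, gins2, mcm3 and mcm6), and mcm3 and mcm6 alone were called without either 30% epiboly library or without the 4-cell polyA+ library, as were mcm3, mcm6, gins2 and rpa2 without the 4-cell ribo-depleted library. The log2 changes of the 10 genes stayed below 0 in these fits, with DESeq2, with total counts and without the filter. They ran from -2.30 to -1.87 for ticrr, from -1.98 to -1.60 for pola2 and from -1.65 to -1.41 for mcm10, and most widely relative to its size for recql4 (-2.12 to -0.55).

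**Figure D1:**
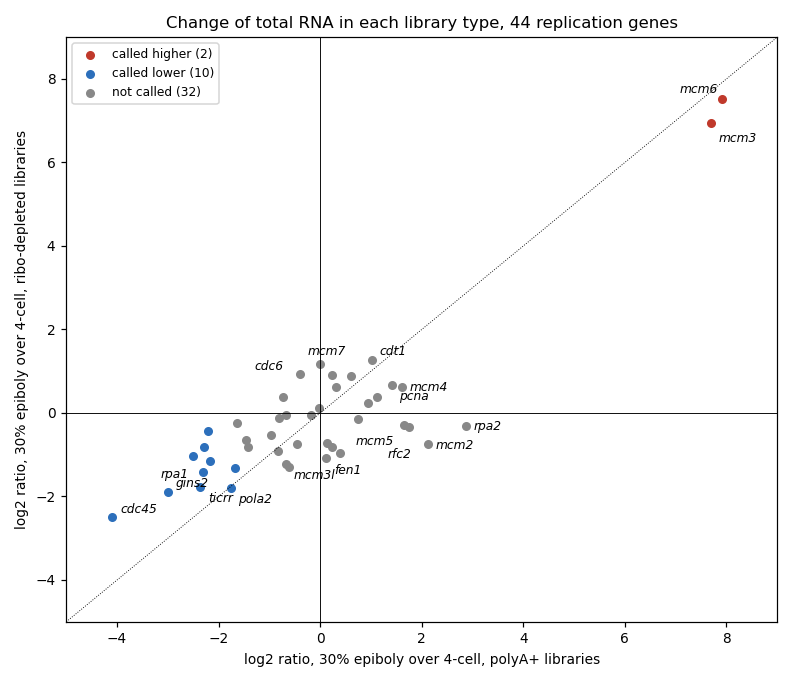
Log2 ratio of total RNA, 30% epiboly over 4-cell, of each of the 44 replication genes in the polyA+ libraries (horizontal axis) and in the ribo-depleted libraries (vertical axis), with the dotted line marking equal ratios. The 2 genes called higher, mcm3 and mcm6, stand apart at the upper right, the 10 called lower lie at the lower left, and mcm2 and rpa2 are right of 0 in polyA+ RNA and below 0 in ribo-depleted RNA.

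Among the MCM subunits, 2 of 7 rose, none fell and 5 did not pass the test (median log2 change 0.68). Over all genes tested, 18.3% were called higher and 14.4% lower, and no role was tested as a group. mcm6 stood at 86.4 and 75.5 CPM at 30% epiboly in the polyA+ and ribo-depleted libraries, against 0.357 and 0.409 CPM at 4-cell, which are 3 and 11 reads. mcm3 stood at 197 and 109.6 CPM at 30% epiboly, against 0.952 and 0.893 CPM at 4-cell, which are 8 and 24 reads. For both genes each 30% epiboly library was far above each 4-cell library. The ratio of scaled reads was 242 for mcm6 in polyA+ RNA (95% counting interval 82.5 to 1176) and 185 in ribo-depleted RNA (103 to 371). For mcm3 it was 207 (105 to 479) and 123 (82.3 to 192). These intervals cover counting error only. The fitted log2 changes, which at so few reads depend on the prior count, were 7.64 ± 0.64 (SE) for mcm6 and 7.25 ± 0.64 for mcm3. The edgeR adjusted p of mcm3 was 5.67e-28, and 0.00925 with library type left out. mcm6 passed the filter on low counts only through the 30% epiboly libraries, where it was high. Without that filter its log2 change was 7.58.

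The other MCM subunits were already present at 4-cell, and none of them passed the edgeR test, while DESeq2 called mcm4 higher. mcm4 stood at 559.9 and 493 CPM at 30% epiboly, against 184 and 318 CPM at 4-cell, above 4-cell in both library types (log2 change 1.12 ± 0.61, edgeR adjusted p = 0.152). mcm7 stood at 486 and 351 CPM at 30% epiboly, against 486 and 155 CPM at 4-cell, level in polyA+ RNA and above 4-cell in ribo-depleted RNA (0.59 ± 0.60). mcm5 stood at 236 and 291 CPM at 30% epiboly, against 74.98 and 353 CPM at 4-cell (0.68 ± 0.58). Across library types the stages overlapped for mcm5 and mcm7 but not for mcm4. mcm2 stood at 139 and 207 CPM at 30% epiboly, against 32.1 and 348 CPM at 4-cell (0.67 ± 0.59). Its 4-cell libraries held both its lowest and its highest value, so the stages overlapped.

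mcm3 and mcm6 each have a close relative in zebrafish, mcm3l and mcm6l, and in the frog Xenopus separate maternal and zygotic forms of Mcm3 and of Mcm6 are known. mcm3l, a member of the list, stood at 61.0 and 120.1 CPM at 30% epiboly, against 97.7 and 280.1 CPM at 4-cell, below its 4-cell level in both library types without passing the test (log2 change -0.95 ± 0.51, edgeR adjusted p = 0.144). Its NTR at 30% epiboly was 0.28% and 2.33%, beside 71.7% and 80.0% for mcm3. mcm6l, from the wider list of replication genes, stood at 208 and 333 CPM at 30% epiboly, against 273 and 290.3 CPM at 4-cell (-0.10 ± 0.56, adjusted p = 0.913), with an NTR of 0.29% and 0.05%. Thus the relatives were present at both stages with almost no label, and mcm3 and mcm6 were mostly labeled at 30% epiboly and nearly absent at 4-cell.

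On a scale per gene length (TPM, reads per base of gene scaled to the same sum in each library), mcm3 made up 73.7% of the summed level of mcm3 and mcm3l at 30% epiboly in polyA+ RNA and 44.3% in ribo-depleted RNA, against 0.842% and 0.277% at 4-cell. mcm6 made up 25.01% and 15.4% of the summed level of mcm6 and mcm6l at 30% epiboly, against 0.105% and 0.113% at 4-cell. At 30% epiboly mcm3 was thus above mcm3l in polyA+ RNA (142 and 50.6 TPM) and below it in ribo-depleted RNA (44.8 and 56.5 TPM), while mcm6 was below mcm6l in both (59.4 and 178 TPM, and 29.4 and 161 TPM). Read counts of mcm3l were not whole numbers in 3 of the 4 libraries and those of mcm3 in 1, as when reads are shared between genes, and a split of reads between relatives was not tested. mcm6 had whole counts in every library.

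**Figure D2:**
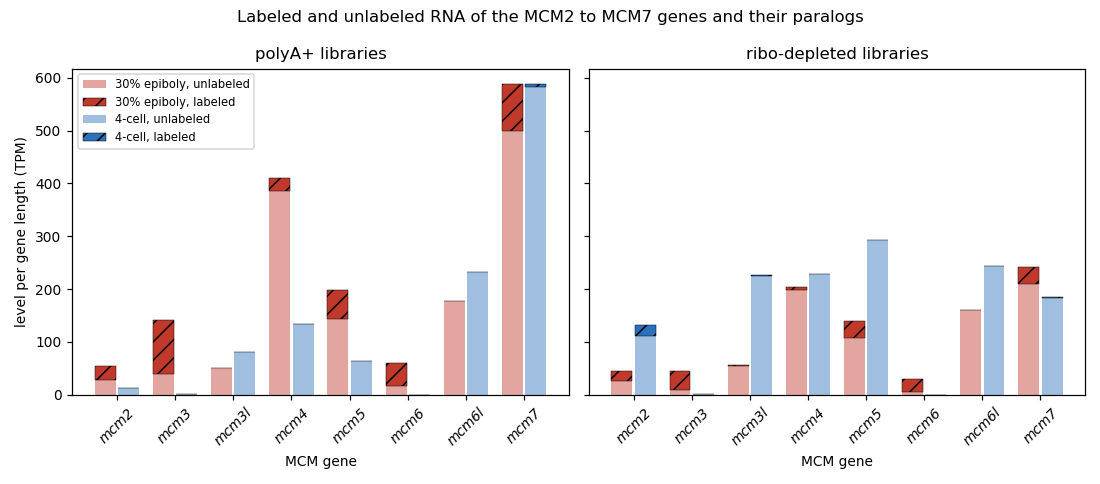
Level per gene length (TPM) of the MCM2 to MCM7 genes and the relatives mcm3l and mcm6l in polyA+ (left) and ribo-depleted (right) libraries, as 1 bar per library, with 30% epiboly red and 4-cell blue and the labeled part (level times NTR) hatched. mcm3 and mcm6 are mostly hatched at 30% epiboly and have no visible bar at 4-cell, while mcm3l and mcm6l have almost no hatched part.

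The ORC genes, whose products mark origins, had log2 changes below 0 in total RNA in all 6 cases (median -0.91). Of the 6, 1 was called lower (orc1), beside 14.4% of all genes tested. orc1 stood at 86.2 and 145 CPM at 30% epiboly, against 492 and 294 CPM at 4-cell, with both 30% epiboly libraries below both 4-cell libraries (-1.77 ± 0.58, edgeR adjusted p = 0.0106). orc2 stood at 16.8 and 13.7 CPM at 30% epiboly, against 14.4 and 24.3 CPM at 4-cell, and its stages overlapped. The 5 ORC genes that were not called had log2 changes of -1.05 (orc6), -0.96 (orc3), -0.87 (orc4), -0.32 (orc5) and -0.31 (orc2). By library type, orc2 and orc5 were above 4-cell in polyA+ RNA (log2 ratios 0.22 and 0.39) and below it in ribo-depleted RNA (-0.82 and -0.96).

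Per gene length, the licensing genes cdt1 and gmnn were among the 3 most abundant replication RNAs in each library. The other licensing gene, cdc6, ranked from 3 (4-cell polyA+) to 14 (4-cell ribo-depleted). Of the 3 licensing genes 0 were called by edgeR, 0 also at an unadjusted p under 0.05, while DESeq2 called 1 (cdt1, higher). cdt1, which brings the MCM helicase to ORC, stood at 1481 and 1017 CPM at 30% epiboly, against 734 and 419 CPM at 4-cell, above 4-cell in both library types (1.15 ± 0.71, edgeR adjusted p = 0.214). cdc6, the other loading factor, stood at 731 and 530.4 CPM at 30% epiboly, against 958 and 279.7 CPM at 4-cell, with opposite directions in the 2 library types (0.27 ± 0.67). gmnn, which encodes geminin, stood at 387 and 549 CPM at 30% epiboly, against 441 and 572 CPM at 4-cell (-0.12 ± 0.62). Its level differed more between library types than between stages.

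The 9 genes that activate the loaded helicase had the most falls of any role here (median log2 change -1.32). Of the 9, 5 were called lower, beside 14.4% of all genes tested, none higher, and 4 were not called. cdc45, the helicase's partner at the fork, stood at 20.3 and 49.3 CPM at 30% epiboly, against 347 and 278 CPM at 4-cell, with both 30% epiboly libraries far below both 4-cell libraries (-3.28 ± 0.58, edgeR adjusted p = 1.96e-07). gins2, a subunit of GINS, stood at 17.2 and 15.8 CPM at 30% epiboly, against 138 and 58.5 CPM at 4-cell (-2.44 ± 0.48, adjusted p = 4.61e-06). ticrr, which encodes treslin, stood at 54.0 and 56.8 CPM at 30% epiboly, against 277 and 195 CPM at 4-cell (-2.07 ± 0.53, adjusted p = 0.000582). For gins2 and ticrr the stages again did not overlap.

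The falls did not extend to the whole of GINS. gins1 stood at 24.9 and 20.7 CPM at 30% epiboly, against 22.6 and 33.9 CPM at 4-cell, and gins3 and gins4 had log2 changes of -0.60 and 0.47, none of them called; the difference between gins2 and the other subunits was not tested. mcm10, a factor that sets the helicase moving, fell by 1.496 on the log2 scale (SE 0.50, edgeR adjusted p = 0.012). recql4, a helicase of the initiation step, fell by 1.32 (SE 0.53, adjusted p = 0.0414), the weakest of the calls, and was not called by DESeq2 (adjusted p = 0.0790). Without the 4-cell polyA+ library its log2 change was -0.55. topbp1, which bridges these factors, was not called (-0.75 ± 0.47).

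None of the 6 genes of the clamp and its loader was called by edgeR, 0 also at an unadjusted p under 0.05, and DESeq2 called 1 (pcna, higher). pcna stood at 809 and 589 CPM at 30% epiboly, against 304 and 367 CPM at 4-cell, with both 30% epiboly libraries above both 4-cell libraries (1.05 ± 0.64, edgeR adjusted p = 0.208). The loader genes rfc1 to rfc5 had log2 changes between -0.46 (rfc3) and 0.75 (rfc4). The sign of rfc1 (0.04) turned to -0.11 when libraries were scaled to total reads.

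Of the 3 RPA genes, rpa1, which encodes the large DNA-binding subunit, was called lower, beside 14.4% of all genes tested. rpa1 stood at 87.6 and 93.3 CPM at 30% epiboly, against 433 and 249 CPM at 4-cell, without overlap between stages (-1.86 ± 0.56, edgeR adjusted p = 0.00436). rpa2 had the highest log2 change of the genes that were not called (1.18 ± 0.50, adjusted p = 0.0536). It stood at 32.2 and 34.0 CPM at 30% epiboly, against 4.404 (37 reads) and 41.9 CPM at 4-cell, so the 4-cell polyA+ library alone was low and the stages overlapped. Without that library its log2 change was -0.40. rpa3 was level within a few-fold in the 4 libraries (-0.17 ± 0.49).

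Of the 7 polymerase genes, 3 were called lower, beside 14.4% of all genes tested, none higher, and 4 were not called (median log2 change -1.12). pola2, the B subunit of polymerase alpha, stood at 28.8 and 22.4 CPM at 30% epiboly, against 97.6 and 78.0 CPM at 4-cell, without overlap and with nearly the same ratio in both library types (-1.78 ± 0.47, edgeR adjusted p = 0.000809). prim2, the large primase subunit, fell by 1.65 (SE 0.50, adjusted p = 0.00447) and pole, the catalytic subunit of polymerase epsilon, by 1.54 (SE 0.47, adjusted p = 0.00534). The partner subunits did not all share these calls. prim1, the catalytic primase subunit, had a log2 change of 0.75 ± 0.45 (edgeR adjusted p = 0.202). pola1, the catalytic subunit of polymerase alpha, had one of -1.12 ± 0.54 (edgeR adjusted p = 0.0985). pola1 was lower in both library types (log2 ratios -1.43 and -0.82), and was called lower by DESeq2 and with total counts. Differences between partner subunits were not tested. pole2, a second subunit of polymerase epsilon, stood at 51.1 and 33.3 CPM at 30% epiboly, against 158 and 39.1 CPM at 4-cell, and pold1, the catalytic subunit of polymerase delta, at 84.0 and 122 CPM, against 49.9 and 135 CPM. Neither passed the test.

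Of the 3 genes for maturation and nucleotides, 0 were called by edgeR, 0 also at an unadjusted p under 0.05, and 0 by DESeq2. rrm1, the large subunit of the enzyme that makes deoxynucleotides, stood at 438 and 237 CPM at 30% epiboly, against 699 and 243 CPM at 4-cell (-0.36 ± 0.60). fen1 and lig1, which trim and join Okazaki fragments, had log2 changes of -0.48 ± 0.52 and 0.57 ± 0.51. lig1 stood out by library type: its polyA+ level was 4.99-fold its ribo-depleted level at 30% epiboly and 8.08-fold at 4-cell.

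**Figure D3:**
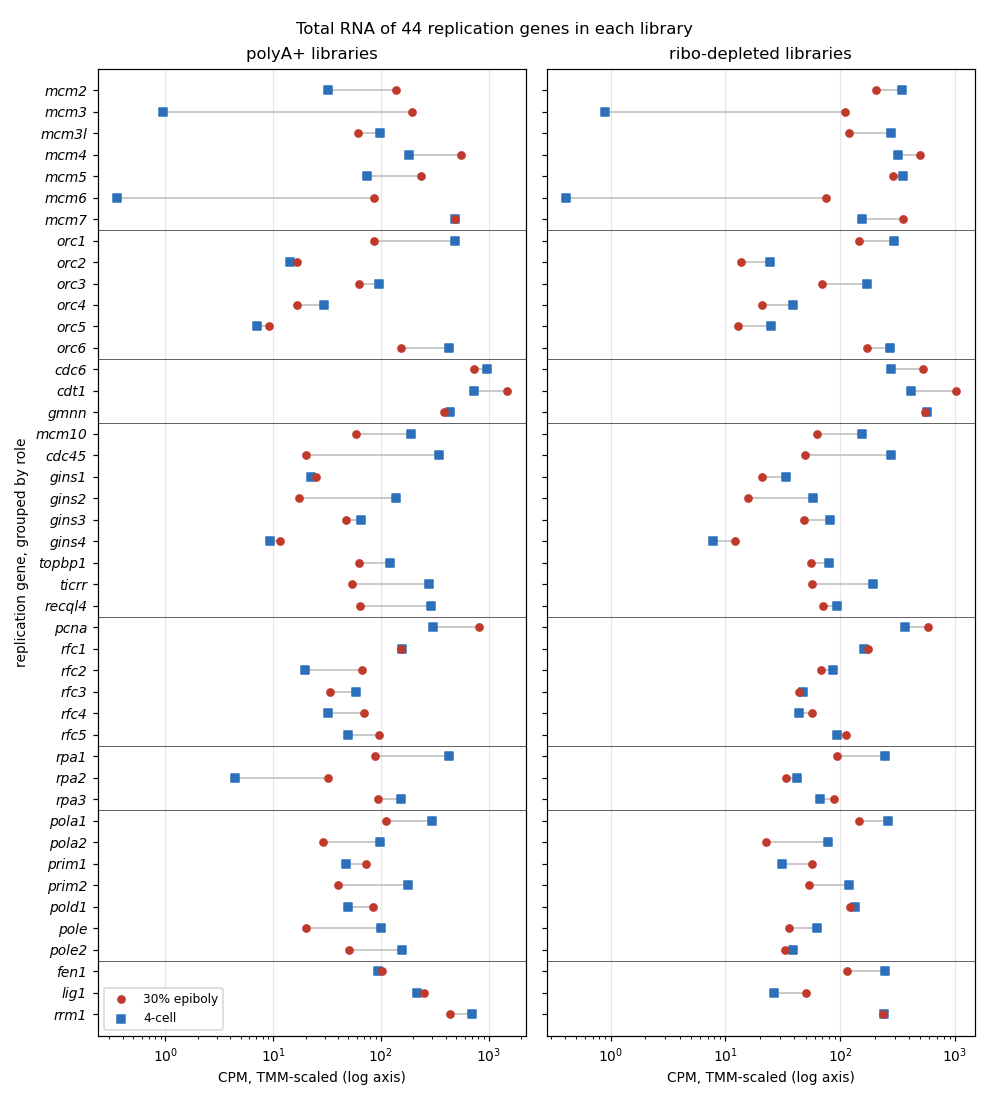
Total RNA (CPM on a log axis) of the 44 replication genes in polyA+ (left) and ribo-depleted (right) libraries, grouped by role between horizontal lines, with 30% epiboly as red circles, 4-cell as blue squares and a line joining the 2 libraries of a gene. The long lines of mcm3 and mcm6 end below 1 CPM at 4-cell, and the blue squares of cdc45, gins2, ticrr, rpa1 and pola2 lie right of the red circles in both panels.

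On the scale per gene length the replication genes spanned a wide range in each library. At 30% epiboly cdt1, pcna and gmnn were the 3 highest in both library types (1346, 1239 and 830.3 TPM in polyA+ RNA, and 524, 510.4 and 667 TPM in ribo-depleted RNA), and pole the lowest (6.30 TPM in each). At 4-cell gmnn was the highest in both library types (945 and 1202 TPM) and mcm6 the lowest (0.245 and 0.275 TPM). Thus RNA for the inhibitor of licensing was the most abundant of the 44 at 4-cell. At that stage cdt1 and pcna already stood at 667 and 465 TPM in polyA+ RNA and at 373 and 550 TPM in ribo-depleted RNA. At 30% epiboly both were above gmnn in polyA+ RNA and below it in ribo-depleted RNA.

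New RNA of the replication genes ranged from almost none to most of a gene's RNA. At 30% epiboly the median NTR of the 44 genes was 12.4% with polyA+ selection and 11.4% with ribo-depletion, against a median of 0 in both 4-cell libraries (41 and 42 genes with at least 50 reads). Over all genes with at least 50 reads the medians at 30% epiboly were 8.41% and 8.96%. Weighted by reads, labeled RNA was 19.4% and 17.1% of the summed reads of the 44 genes at 30% epiboly, against 0.130% and 1.43% at 4-cell. An NTR of 10% or more in both 30% epiboly libraries was found for 20 of 44 genes (45.5%, beside 41.1% of all genes with at least 50 reads in both), and an NTR below 10% in both for 18 of 44 (40.9%, beside 48.1%). The other 6 (cdc45, gins2, lig1, rfc2, rfc4 and rpa3) were on different sides in the 2 library types.

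The highest NTR was that of mcm6, 72.0% and 85.3% at 30% epiboly (polyA+ and ribo-depleted), followed by mcm3 with 71.7% and 80.0%. An NTR above 50% in both libraries was found for these 2 of 44 genes (4.55%, beside 12% of all genes). The 6 zygotic markers lay between 66.1% (gsc) and 74.4% (spaca4l) in polyA+ RNA and between 73.9% (gsc) and 84.5% (krt8) in ribo-depleted RNA. Of the stored markers, h1m had 6.44% and 20.4% at 30% epiboly, and wee2, nanos3 and dnd1 had at most 2.73%. Among the 44 genes, mcm2 followed mcm3 with 47.8% and 41.0% at 30% epiboly, against 0% and 16.25% at 4-cell. Next was pcna with 33.3% and 38.5%, against 0.20% and 6.65%. cdc45 had 45.5% in polyA+ and 8.14% in ribo-depleted RNA at 30% epiboly, the widest gap between library types of the 44 genes, on 197 and 831 reads. Which of its values is nearer the true share was not tested. At 4-cell, an NTR of 5% or more was found for 3 of 42 replication genes past 100 reads in ribo-depleted RNA (7.14%, beside 7.09% of all such genes) and for 1 of 39 in polyA+ RNA (2.56%, beside 0.558%).

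The lowest mean NTR values at 30% epiboly were those of gins1 (0.71% and 0.62%), orc2 (0% and 1.95%), pole2 (1.95% and 0.62%), mcm3l (0.28% and 2.33%) and pold1 (1.37% and 1.89%). Roles differed in range. All 6 ORC genes were below 10% in both libraries, with medians of 4.14% and 3.41% and maxima of 6.54% and 4.81%. The MCM genes had medians of 28.4% and 22.9% and ran from 0.28% and 2.33% (mcm3l) to 72.0% and 85.3% (mcm6). The NTR was 20.1% and 20.6% for cdc6 and 20.0% and 16.7% for cdt1, but 4.25% and 1.92% for gmnn. It was 21.4% and 13.9% for rpa1, 24.2% and 20.3% for rrm1 and 19.2% and 19.5% for pola2, while mcm4 had 5.94% and 2.95%. The genes called lower had label as well: ticrr had 18.3% and 27.4%, pole 26.0% and 24.1%, mcm10 25.5% and 11.5%, and prim2 1.79% and 5.04%.

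The 2 library types gave similar NTR for most of the 44 genes at 30% epiboly. Values were within 5 percentage points for 29 genes and more than 10 points apart for 5 (median gap 3.32 points). Across the 44 genes, which share the same libraries and are not independent, Pearson's r was 0.888 and Spearman's rho 0.811, given as a description.

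**Figure D4:**
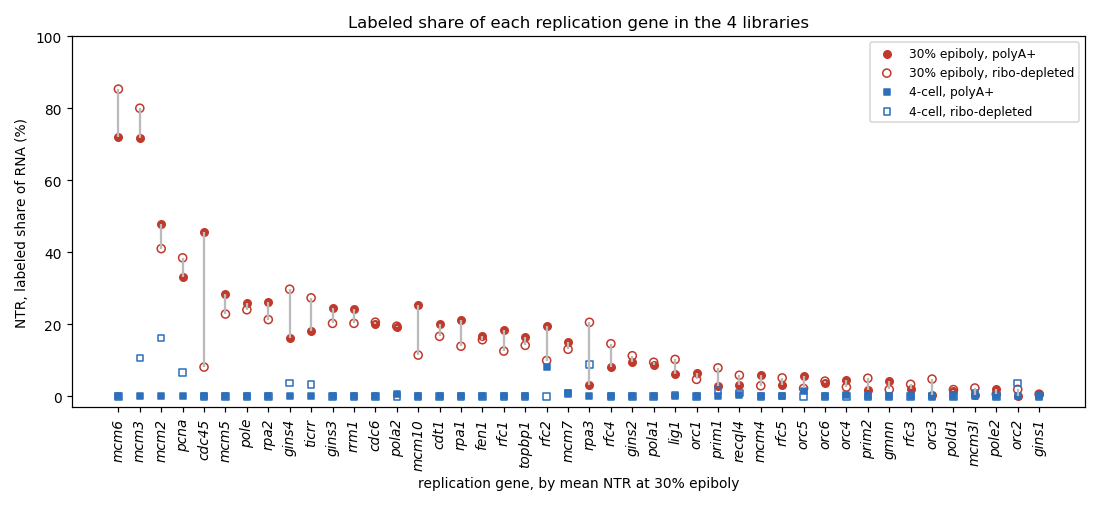
Labeled share of RNA (NTR, %) of each of the 44 replication genes, ordered by the mean of both 30% epiboly libraries, with 30% epiboly as red circles and 4-cell as blue squares (filled polyA+, open ribo-depleted) and a line joining the 2 values at 30% epiboly. mcm6, mcm3, mcm2 and pcna lead, cdc45 has the longest line (45.5% and 8.14%), and the open blue square of mcm2 (16.25%) is the highest 4-cell value.

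The unlabeled RNA, taken as reads times (1 - NTR) on the same scale, stands for RNA stored before injection as far as NTR captures all new RNA. In the test on unlabeled reads 12 of 44 replication genes were called (27.3%, beside 26.7% of all genes tested), the same 12 genes as in total RNA. Of these, 2 were higher (9.51% of all genes) and 10 lower (17.2%). Unlabeled reads are a part of the total reads, so the shared calls are no separate support. With TMM factors taken from the unlabeled reads, 2 were called higher and 9 lower, and over all genes 1930 higher and 2027 lower in place of 1552 and 2804. cdc45 had 11.1 and 45.3 unlabeled CPM at 30% epiboly, against 347 and 278 at 4-cell (log2 change -3.77 ± 0.62, edgeR adjusted p = 4.40e-08). gins2 had 15.6 and 14.01 unlabeled CPM, against 138 and 58.5 (-2.60 ± 0.49, adjusted p = 1.92e-06). The 10 genes called lower had log2 changes of unlabeled RNA from -3.77 (cdc45) to -1.37 (recql4). None of the 10 was called lower in unlabeled RNA with library type left out or when any 1 of the 4 libraries was left out, and without either 4-cell library no replication gene was called at all (17 and 18 were at an unadjusted p under 0.05 by edgeR, without the polyA+ and without the ribo-depleted library).

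The 2 genes called higher in unlabeled RNA were mcm3 and mcm6, the most labeled genes of the list. mcm3 had 55.7 and 21.9 unlabeled CPM at 30% epiboly, against 0.952 and 0.798 at 4-cell, and mcm6 24.2 and 11.1, against 0.357 and 0.409. The zygotic markers showed the same, with 84.7 and 34.3 unlabeled CPM of tbxta at 30% epiboly, against 0 and 0.112 at 4-cell. The zygotic marker spaca4l, with 0 reads in both 4-cell libraries, had 41.2 and 23.2 unlabeled CPM at 30% epiboly. How much of this unlabeled RNA was stored was not tested. The calls of mcm3 and mcm6 are therefore not read as a gain of stored RNA. mcm2, whose labeled share was also high, had 72.8 and 122 unlabeled CPM at 30% epiboly, against 32.1 and 291 at 4-cell (log2 change -0.05 ± 0.56). pcna had 540.2 and 362 unlabeled CPM, against 304 and 342 (0.46 ± 0.62). Where both stages had at least 50 reads (41 and 42 genes), the median log2 ratio of unlabeled RNA, scaled to total reads, was -0.65 in polyA+ RNA and -1.02 in ribo-depleted RNA, beside -0.31 and -0.58 over all such genes. On the TMM scale of the CPM values it was -0.68 in both types, beside -0.34 and -0.25.

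The 2 library types did not give the same direction for every replication gene. Total RNA was lower at 30% epiboly in both types for 21 of 44 genes (47.7%, beside 37.9% of 15315 genes), higher in both for 10 (22.7%, beside 38%) and opposite for 13 (29.5%, beside 24.1%). Of the 13, fen1, gins1, mcm2, mcm5, orc2, orc5, pold1, rfc2 and rpa2 were higher in polyA+ and lower in ribo-depleted RNA (9 genes, 20.5%, beside 11.8%), and cdc6, mcm7, rfc1 and rpa3 were the reverse (4 genes, 9.09%, beside 12.3%). Scaling to total reads in place of TMM moved every log2 ratio by 0.03 in polyA+ and by -0.34 in ribo-depleted RNA, which turned the sign of mcm7 in polyA+, of rfc5 in ribo-depleted and of rfc1 in both.

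mcm2 was the 1 gene of the 44 whose ratios were past 0.5 in opposite directions, with log2 ratios of 2.12 in polyA+ RNA and -0.75 in ribo-depleted RNA (2.27% of the list, beside 2.91% of 15315 genes higher in polyA+ in this way). Its ribo-depleted level was 1.49-fold its polyA+ level at 30% epiboly, against 10.8-fold at 4-cell. rpa2 behaved alike, with 1.06-fold at 30% epiboly, against 9.52-fold at 4-cell, and rfc2 had 1.02-fold, against 4.36-fold. mcm5 had 1.23-fold at 30% epiboly, against 4.71-fold at 4-cell. For mcm2, rpa2, rfc2 and mcm5 the 4-cell polyA+ library held the lowest value and the 4-cell ribo-depleted library the highest. The difference of the stage effect between types was not tested, since no residual degree of freedom remains with that term.

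The wider list of replication genes, drawn up by role, held 62 names, of which 53 were found and tested. Of these, 6 were called higher, 14 lower and 33 were not called in total RNA, 20 of 53 beside 32.6% of all genes tested. By direction, 18.3% of all genes tested were higher and 14.4% lower. Groups of this list held few genes and were not tested against these shares. Of the partners of the helicase and fork, dbf4 rose and mcm8, mcm9 and cdc7 fell among 10. mcm9, a relative of the MCM subunits, stood at 13.5 and 31.5 CPM at 30% epiboly, against 30.9 and 154 CPM at 4-cell, below 4-cell in each library type (-1.76 ± 0.48, edgeR adjusted p = 0.00131). Dbf4 and Cdc7 are the 2 subunits of the kinase that fires origins. dbf4 stood at 41.7 and 25.5 CPM at 30% epiboly, against 10.1 and 8.33 CPM at 4-cell (1.82 ± 0.46, edgeR adjusted p = 0.0005), and cdc7 at 47.1 and 45.7 CPM, against 176 and 115 CPM (-1.62 ± 0.49, adjusted p = 0.00496). Both were labeled at 30% epiboly, dbf4 at 64.2% and 71.6% and cdc7 at 48.9% and 40.0%. The unlabeled RNA of dbf4 did not pass the test (0.18 ± 0.46), and that of cdc7 fell by 2.47 (SE 0.51).

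Over all genes tested, 18.3% were called higher and 14.4% lower, and no group here was tested against these shares. Of 14 polymerase subunits, loaders and maturation factors, 3 were called, and all 3 were lower. These were atad5b, a relative of the clamp unloader (-2.86 ± 0.48), and the nucleases dna2 (-2.21 ± 0.56) and exo1 (-1.56 ± 0.50). Of 10 genes of nucleotide supply, 1 rose (ctps1a) and 3 fell: dck, deoxycytidine kinase (-2.60 ± 0.55), tyms, thymidylate synthase (-1.77 ± 0.54), and ctps1b, a CTP synthase (-1.36 ± 0.46). Of 8 topoisomerase and chromatin assembly genes, top2b rose (2.48 ± 0.51) and 4 fell, led by dnmt1, the maintenance DNA methyltransferase (-2.79 ± 0.89), and nasp, a histone chaperone (-2.29 ± 0.71).

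Among 11 genes of the E2F, DP and pocket protein families, which control transcription of S-phase genes, 3 rose and 1 fell. Beside these, 18.3% of all genes tested were called higher and 14.4% lower. e2f7, a repressor of the family, had 2 and 9 reads at 4-cell and passed the filter only through the 30% epiboly libraries. It stood at 142 and 112 CPM at 30% epiboly, against 0.238 and 0.335 CPM at 4-cell. Its fitted log2 change was 8.62 ± 0.69, with an NTR of 62.3% and 64.2% at 30% epiboly. As for mcm6, its call adds no support beyond these reads. rbl1, the pocket protein p107, stood at 46.8 and 18.1 CPM at 30% epiboly, against 5.06 and 3.46 CPM at 4-cell (2.79 ± 0.49), and e2f5 fell by 1.27 (SE 0.45). In place of 20 genes of the wider list, 3 were called with library type left out and 1 to 2 with any 1 library left out.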

How the data were processed

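Estimated read counts, NTR, T-to-C conversions and coverage were analysed for 4 bulk libraries, 1 polyA+ and 1 ribo-depleted at each stage. The authors trimmed reads with cutadapt 3.5, aligned them with STAR 2.7.10a and quantified them with GRAND-SLAM 2.0.5f on GRCz11 with Ensembl release 102. The deposited estimated counts carry no normalization, can be fractional, and were rounded for the tests. The deposited NTR values are fractions, given here as percents. The deposited conversions are a score, the number of T-to-C changes per gene, and the deposited coverage is the signal of covered T bases. Labels give 2 replicates per stage but the table does not tie libraries to them, so libraries were identified by stage and instrument. Depth was 9058807 to 22521675 reads, and few reads make an NTR imprecise.

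Stages were compared with the quasi-likelihood test of edgeR 4.0.16, run in R 4.3.3 (TMM, filterByExpr, library type as covariate, Benjamini-Hochberg over 16315 genes, threshold 0.05, 1 residual degree of freedom, dispersion 0.0977). The same genes and library sizes were used for unlabeled reads, without the error of NTR. DESeq2 1.42.0, total counts, no filter, no library type and each library left out were tried, the last also without library type. The same edgeR steps were run on simulated counts. These held no difference in stage effect between library types, so they cannot check the p-values given here. CPM used TMM-scaled library sizes. NTR medians used genes with at least 50 reads, and counting intervals of ratios were exact (95%). Python 3.11.15, pandas 2.3.3 and scipy 1.17.1 were used.

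The 44 genes and the wider list were chosen with earlier results of these data known. Genes given with values in every library are the MCM genes, orc1, cdc6, cdt1, gmnn, pcna and rrm1, the 5 largest rises and falls past the threshold (2 rises were called) and the 5 highest and lowest in mean NTR at 30% epiboly. Of the wider list, up to 3 called genes per group with the largest change are named, most by their fitted change alone. Values of rpa2, tbxta, mcm6l and of partner subunits, and the names mcm8 and ctps1a, were added after they were seen. In 17 of 44 genes a read count was not whole (within 1e-06) in some library, as when reads are shared between genes, and 17 of 44 overlap a neighbouring gene in the GRCz12tu RefSeq table, used for names and neighbours only. Both library kits keep strand, but the sources used here do not state if counting used it. Promoter and protein sequences were not analysed here.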

Additional observations from a re-analysis of the deposited data

Results flagged for a closer look

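mcm2 had a log2 ratio of total RNA, 30% epiboly over 4-cell, of 2.12 in the polyA+ libraries and of -0.75 in the ribo-depleted libraries, and was singled out because the 2 library types moved in opposite directions. The difference was not tested. 4 values were flagged as label at 4-cell, where little zygotic transcription is known. NTR was 16.25% for mcm2, 6.65% for pcna and 8.85% for rpa3 in the 4-cell ribo-depleted library. It was 8.07% for rfc2 in the 4-cell polyA+ library. These values rest on 9355, 9862, 1811 and 167 reads. The stored RNA h1m also had an NTR of 12.3% in the 4-cell ribo-depleted library, against 0.47% in polyA+ RNA. The stored RNAs wee2, nanos3 and dnd1 had 0% in the 4-cell ribo-depleted library. An NTR of 5% or more at 4-cell was found for 7.09% of the ribo-depleted library's genes with at least 100 reads (3 of 42 replication genes, 7.14%) and for 0.558% in polyA+ RNA (1 of 39, 2.56%). In the other 4-cell library the NTR was 0% for mcm2, 0.20% for pcna, 0.18% for rpa3 and 0% for rfc2. The share of covered T bases read as C in the 4-cell ribo-depleted library was 1.17% for mcm2, 0.515% for pcna and 0.939% for rpa3, beside 0.232% over that library, and for rfc2 it was 1.27% in the polyA+ library, beside 0.177%. At 30% epiboly the NTR of rpa3 was 3.07% in polyA+ and 20.6% in ribo-depleted RNA. The source of these conversions was not tested. The span of mcm2 is overlapped by 9 other genes in RefSeq's GRCz12tu gene list, and their part in its values was not tested either.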

How the results depend on the processing

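Of the replication genes, 12 were called in total RNA; 15 with DESeq2 (5 higher, 10 lower, 11 shared, with cdt1, mcm4, pcna and pola1 added and recql4 lost), 14 with total counts, 12 without the filter, 4 with library type left out and 2 to 4 with 1 library left out. In unlabeled RNA 12 were called, 12 with DESeq2 (11 shared), 18 with total counts, 13 without the filter, 12 with the NTR of the 4-cell libraries set to 0, 11 with TMM on unlabeled reads, 2 with library type left out and 0 to 2 with 1 library left out. Of the wider list 20 were called, 3 with library type left out and 1 to 2 with 1 library left out. Over all genes, 5326 were called in total RNA, 1977 with library type left out and 952 to 1669 with 1 library left out, and 4356 in unlabeled RNA, 2709 with DESeq2, 327 with library type left out and 0 to 795 with 1 library left out (0 without either 4-cell library, by edgeR). The cause of these losses was not tested, and each fit with 1 library left out also lacked the term for library type. None of the 12 genes called in total RNA turned its direction in these alternatives. Median NTR at 30% epiboly moved from 12.4% (polyA+) and 11.4% (ribo-depleted) to 19.4% and 17.1% as a share of summed reads, and at 4-cell from 0 to 0.130% and 1.43%. That setting replaces a median by a mean weighted by reads, and the cause of the move was not tested. No paired analysis was possible because the deposited columns carry no replicate numbers to serve as a block, and library type, in the fit as a covariate, already matches the stages within a type. The planned motif and protein comparisons were not run. Depth limits the 4-cell values of mcm3 and mcm6, at 3 to 24 reads.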
